A study of Chlamydomonas reinhardtii with 27 samples.

Results

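RUBY (CHLREDRAFT_196816) and UGT-80 (CHLREDRAFT_154976) are 2 sugar genes of the green alga Chlamydomonas reinhardtii, and both were taken from the 19267 identifiers of the deposited tables by identifier, as the study names them. Both passed the filter on low counts and were among the 16443 genes tested. The study singled them out for their rise against control, within the earlier times of the course, so calls against control are given here as a description and not as independent evidence. The span it gives for RUBY does not include 72 and 96 h. Under 200 mM NaCl the transcripts of both genes rose, but along different courses. RUBY was higher than in control at all 8 time points and was at its highest, 63.6 ± 5.16 FPKM (fragments per kilobase of gene length, scaled for the depth of the library, SD, n = 3), at 96 h. UGT-80 was at its highest, 32.0 ± 4.06 FPKM, at 2 h. At 24, 72 and 96 h its libraries overlapped the control libraries, while at 48 h they were all above control.

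The names rest on similarity to genes of Arabidopsis thaliana. In A. thaliana, RUBY is a galactose oxidase, an enzyme that oxidises galactose units of sugar chains, and it is known from seed coats, where it helps cells stick together. UDP-glucosyltransferases move glucose from UDP-glucose to an acceptor molecule, and UGT80 enzymes of A. thaliana place it on sterols. Whether the C. reinhardtii proteins have these activities was not measured. The cell wall of C. reinhardtii is built of glycoproteins rich in hydroxyproline and carries galactose and arabinose side chains. Under salt its cells can stay together after division inside a shared matrix, a form called palmelloid, and the study brought up both genes in that context.

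The primers that the study designed for RUBY in quantitative RT-PCR are shown because the study assigns them to that transcript. Those of its reference gene EF1ALPHA (CHLREDRAFT_132905, elongation factor 1-alpha) are shown because the levels were also scaled to that gene below. The primers were not aligned to a transcript here. Each primer is 20 bases long and is written from its 5′ end, with no bases in capitals.
RUBY forward: ggaatgtacccctactacct
RUBY reverse: gtcagtttgattcggttgac
EF1ALPHA forward: ctttggttgcctgcctctga
EF1ALPHA reverse: gcctgcaccaatcacatcac
The G and C content was 50% and 45% in the RUBY primers and 55% in both EF1ALPHA primers.

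The cells were wild-type strain GY-D55 in BG-11 medium under a light and dark cycle. Polyadenylated RNA was sequenced from a control group without NaCl and from cells collected on the first day of exposure to 200 mM NaCl, after 2, 4, 8, 12 and 24 h, and later, after 48, 72 and 96 h. Each of these 9 groups had 3 replicates, which makes 27 libraries. When the control was sampled is not given in the sources used here, so salt, the age of the culture and the time of day cannot be told apart in a comparison with control. A single control group served all salt times. Between salt times, the age of the culture, and the time of day where it differs, cannot be told apart from time in salt either. The salt was added in a volume of fresh medium, and whether the control received such a volume is also not given. The replicates are not said to be separate cultures, and p-values then measure only the spread between these samples, which may be technical. Total counts ranged from 15286332 to 24783139 per library. The 50 most abundant genes took 41.1% of the counts in 72 h replicate 1 and 37.6% in 2 h replicate 1, against at most 31.2% in any other library. These libraries stood apart, and results that changed without them are named below. In bulk RNA, fewer cells with a transcript and less transcript per cell cannot be told apart.

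RUBY was a well expressed gene, with 1112 to 5378 counts per library and an FPKM above that of 75.0% to 93.4% of genes. In control its level was 18.4, 18.2 and 18.3 FPKM in replicates 1, 2 and 3. At 2 h it was 40.5, 26.6 and 30.1 FPKM, and at 4 h 26.1, 25.1 and 31.2 FPKM. Every library of these time points was above every control library, and replicate 1 was the highest at 2 h. At 8 h RUBY had 31.4, 34.9 and 37.0 FPKM, and at 12 h 35.2, 37.8 and 39.6 FPKM. At 24 h the values were 32.0, 34.1 and 29.8 FPKM, all below those at 12 h and all above control. At 48 h they were 46.0, 47.6 and 53.5 FPKM, above every library of the earlier time points. At 72 h RUBY had 77.3, 55.4 and 52.9 FPKM, and at 96 h 66.3, 57.7 and 66.9 FPKM. The 72 h value of replicate 1 was the highest of all 27 libraries, and 72 h replicate 3 lay within the 48 h range.

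**Figure D1:**
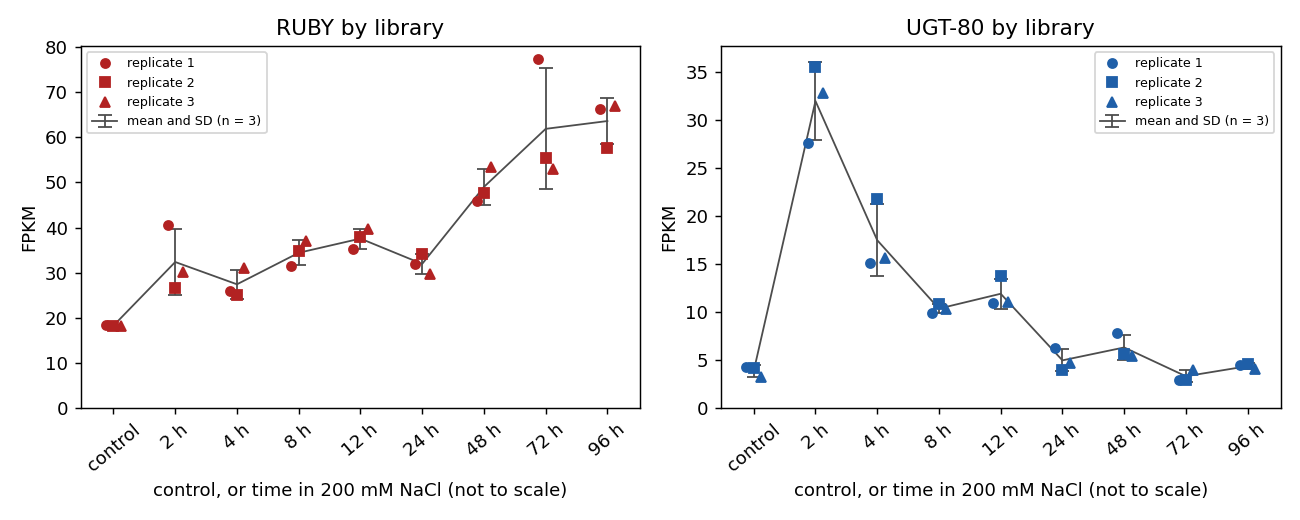
Level of RUBY (left) and UGT-80 (right) in FPKM in control and after 2 to 96 h in 200 mM NaCl, with a symbol for each replicate and the mean and SD of 3 libraries as a line with bars. RUBY climbs from 18.3 FPKM in control to 63.6 FPKM at 96 h, while UGT-80 is at 32.0 FPKM at 2 h and 4.37 FPKM at 96 h.

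Replicate 1 of 2 h and of 72 h are the libraries that stood apart, and the level of RUBY in them depended on the scale. Per 1000000 total counts, RUBY had 114, 123 and 140 at 2 h and 210, 229 and 246 at 72 h, so that replicate 1 was the lowest rather than the highest at both times. On that scale the 96 h values of 310, 307 and 299 were all above those at 72 h, whereas in FPKM these time points overlapped. The deposited FPKM values were scaled by median-of-ratios factors and not by total counts. The part of the abundant genes in the RUBY values of these libraries was not tested.

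Against control, RUBY was called higher at 8 of 8 time points by the quasi-likelihood test of edgeR (p-values adjusted by the Benjamini-Hochberg method). The smallest change was a log2 fold change of 0.65 (SE 0.14, adjusted p = 0.000356), a 1.56-fold increase, at 4 h. The largest was 1.85 (SE 0.15, adjusted p = 3.59e-11), a 3.60-fold increase, at 96 h. The increases at 2, 8, 12, 24, 48 and 72 h were 1.80-fold, 1.91-fold, 2.15-fold, 1.85-fold, 2.82-fold and 3.46-fold, in that order, and the highest adjusted p of these was 1.11e-05. Of all genes tested, 30.1%, 28.0%, 28.4%, 25.7%, 24.9%, 26.9%, 28.7% and 28.0% were called higher at the 8 time points, in order of time. These shares are the background of the calls, and that of genes called higher at all 8 time points was not computed. Nothing about RUBY and UGT-80 is read from these shares, since both were chosen for this contrast. Only the 24 h call was lost under another scaling. When libraries were scaled to the EF1ALPHA count, it was 0.14 (adjusted p = 0.629), and EF1ALPHA itself was 1.71-fold higher at 24 h than in control (log2 fold change 0.77, adjusted p = 0.0296).

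Between neighbouring salt time points RUBY changed in 1 of 7 steps. From 24 to 48 h it rose by a log2 fold change of 0.61 (SE 0.14, adjusted p = 0.00340), a 1.53-fold increase, and in this step 13.9% of genes tested were called in either direction. Every 48 h library was above every 24 h library. The step from 2 to 4 h was -0.20 (adjusted p = 0.382, 12.0% of genes called) and -0.019 without 2 h replicate 1, and that from 8 to 12 h was 0.17 (adjusted p = 0.423, 26.3% called). All 8 h libraries were above all 4 h libraries, but the difference of 0.29 did not pass the test (adjusted p = 0.121, 34.2% called). It passed when libraries were scaled to total counts, at 0.45 (adjusted p = 0.00810), with at least 10 counts required in every library, at 0.36 (adjusted p = 0.0342), and in a fit of only the libraries compared, at 0.28 (adjusted p = 0.0486). All 24 h libraries were below all 12 h libraries, with a difference of -0.22 (adjusted p = 0.311, 18.5% called) that passed the test only when scaled to EF1ALPHA or to total counts.

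From 48 h on, no difference between time points in RUBY passed the test. The difference between 72 and 48 h was 0.29 (95% interval 0.00 to 0.58, adjusted p = 0.275), and 3.0% of genes were called. Between 96 and 72 h it was 0.05 (95% interval -0.23 to 0.34, adjusted p = 0.970), and 0.164% of genes were called. Over both steps, all 96 h libraries were above all 48 h libraries, with a difference of 0.35 (95% interval 0.06 to 0.64, adjusted p = 0.224), and 3.35% of genes were called. These intervals bound the changes and do not show that the levels were alike. Taken as stages, the mean of 2, 4, 8 and 12 h was lower than the mean of 48, 72 and 96 h by a log2 difference of -0.83 (SE 0.08, adjusted p = 4.44e-10), a 1.78-fold difference, and 27.3% of genes were called lower in the early stage. This contrast uses no control library, but the age of the culture also differs between the stages.

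By mean FPKM, RUBY was ordered from high to low as 96, 72, 48, 12, 8, 2, 24 and 4 h, and control came last. The highest mean was 3.48 times the lowest. Of the 8 pairs of neighbours in this order only 4 h and control passed the test. All 48 h libraries were above all 12 h libraries, with a difference of 0.40 (95% interval 0.11 to 0.69) that missed the threshold after adjustment (adjusted p = 0.0731), and 10.7% of genes were called between these times. The pairs of 8 and 2 h (0.09, adjusted p = 0.645) and of 24 and 4 h (0.24, adjusted p = 0.195) were not called, where 45.0% and 37.2% of genes were. The 24 h and 2 h levels had opposite orders in mean FPKM and in the fit, where 24 h was 0.04 higher (adjusted p = 0.845), and 50.4% of genes were called.

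UGT-80 was the less abundant gene in control and had 69 to 2125 counts per library. Its FPKM was above that of 38.8% to 86.3% of genes. In control it was 4.24, 4.18 and 3.19 FPKM in replicates 1, 2 and 3. At 2 h it was 27.5, 35.5 and 32.8 FPKM, and at 4 h 15.1, 21.8 and 15.6 FPKM. Every 2 h library was above every 4 h library, and every 4 h library was above every library of the remaining groups. At 8 h UGT-80 had 9.92, 10.8 and 10.3 FPKM, and at 12 h 10.9, 13.7 and 11.1 FPKM. All of these libraries were above control, and those at 12 h were above those at 8 h by a small margin. At 24 h the values were 6.22, 3.96 and 4.75 FPKM, and the lowest of them lay within the control range. At 48 h they were 7.86, 5.65 and 5.44 FPKM, all above control. At 72 h UGT-80 had 2.97, 2.97 and 4.02 FPKM and at 96 h 4.50, 4.58 and 4.03 FPKM, and both groups overlapped control. The library with the lowest count, 69, was 72 h replicate 1.

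Against control, UGT-80 was called higher at 5 of 8 time points and lower at none. The change was largest at 2 h, with a log2 fold change of 3.08 (SE 0.21, adjusted p = 1.78e-12), an 8.45-fold increase. By size of increase it ranked 689 of 16443 genes at that time, while RUBY ranked 4710. At 4 h it was 2.23 (SE 0.21, adjusted p = 7.22e-10), a 4.70-fold increase. The changes at 8 and 12 h were 1.44 and 1.68, which are 2.71-fold and 3.21-fold increases (adjusted p = 1.04e-06 and 1.29e-07). At 48 h UGT-80 was again called higher, by 0.78 (SE 0.21, adjusted p = 0.00233), a 1.72-fold increase. Scaled to EF1ALPHA, the 48 h change was 0.54 (adjusted p = 0.312). The same background shares as for RUBY apply to these calls.

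UGT-80 did not pass the test against control at 24, 72 and 96 h. At 24 h the log2 fold change was 0.44 (95% interval 0.01 to 0.87, adjusted p = 0.0825), and this call turned on single libraries. It passed without 24 h replicate 2, at 0.61 (adjusted p = 0.0287), and without 2 h replicate 1, at 0.47 (adjusted p = 0.0487). Scaled to EF1ALPHA, the 24 h difference had the opposite sign, -0.28 (adjusted p = 0.595). At 72 h the change was -0.17 (95% interval -0.61 to 0.26, adjusted p = 0.502), and scaled to total counts it was 0.008 (adjusted p = 0.986). At 96 h it was 0.22 (95% interval -0.20 to 0.65, adjusted p = 0.385), and scaled to total counts it was 0.71 and passed the test (adjusted p = 0.0496).

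**Figure D2:**
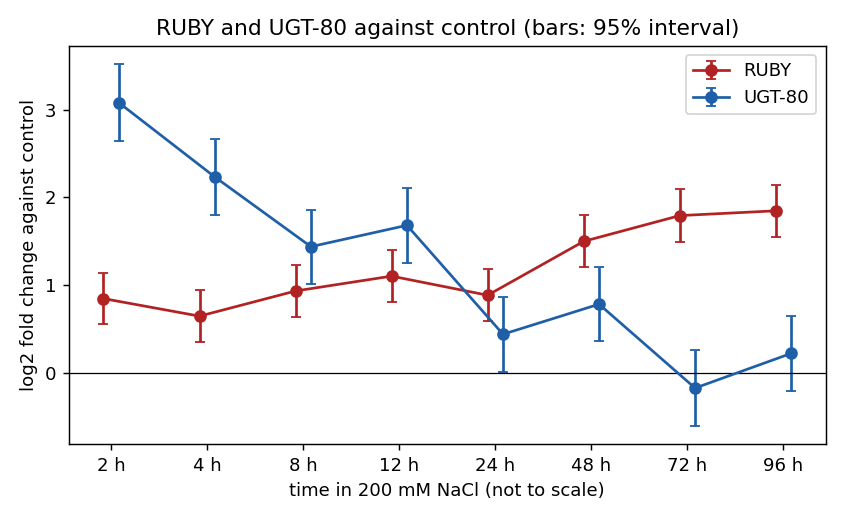
Log2 fold change of RUBY (red) and UGT-80 (blue) against control at each time in 200 mM NaCl, with bars for the 95% interval. The curves cross between 12 and 24 h, with UGT-80 at 3.08 and RUBY at 0.85 at 2 h, and UGT-80 at 0.22 and RUBY at 1.85 at 96 h.

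UGT-80 changed in 4 of 7 steps between neighbouring salt time points, and in each of them it fell. The steps were -0.85 from 2 to 4 h (SE 0.20, adjusted p = 0.00525), -0.79 from 4 to 8 h (SE 0.20, adjusted p = 0.00232), -1.24 from 12 to 24 h (SE 0.20, adjusted p = 6.47e-05) and -0.96 from 48 to 72 h (SE 0.21, adjusted p = 0.00979). Of all genes, 12.0%, 34.2%, 18.5% and 3.0% were called in these steps, in either direction. In all of them every library of the later time point was below every library of the earlier one. The step from 12 to 24 h passed the test in all 38 alternatives, which reuse the same libraries and of which 27 each left out 1 library. Since the study named UGT-80 for a rise at 2 to 12 h, a fall after 12 h is not independent of the choice. The step from 48 to 72 h lost its call without 48 h replicate 1 (-0.76, adjusted p = 0.102) and without 72 h replicate 1 (-0.83, adjusted p = 0.0863). It also lost it in a fit of only the libraries compared (-0.95, adjusted p = 0.130) and when scaled to total counts (-1.13, adjusted p = 0.0679) or to EF1ALPHA (-1.31, adjusted p = 0.381). The step from 2 to 4 h lost its call in a fit of only the libraries compared (-0.82, adjusted p = 0.0748) and when scaled to total counts (-0.73, adjusted p = 0.128) or to EF1ALPHA (-0.87, adjusted p = 0.458). Scaled to total counts or EF1ALPHA, the step from 4 to 8 h did not pass either (-0.65, adjusted p = 0.0947, and -1.09, adjusted p = 0.0549).

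The other steps of UGT-80 did not pass the test. They were 0.24 from 8 to 12 h (adjusted p = 0.407), 0.34 from 24 to 48 h (adjusted p = 0.304) and 0.39 from 72 to 96 h (95% interval -0.03 to 0.82, adjusted p = 0.677). All 12 h libraries were above all 8 h libraries and all 96 h libraries above all 72 h libraries. As stages, the mean of 2, 4, 8 and 12 h was higher than the mean of 48, 72 and 96 h by a log2 difference of 1.83 (SE 0.11, adjusted p = 2.05e-13), a 3.56-fold difference, and 24.9% of genes were called higher in the early stage. The study named UGT-80 for a rise in the first hours, so that this direction is not independent of the choice.

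By mean FPKM, UGT-80 was ordered from high to low as 2, 4, 12, 8, 48, 24 and 96 h, then control, then 72 h. The highest mean was 9.62 times the lowest. Of the 8 neighbours in this order, 2 and 4 h, 4 and 12 h, and 8 and 48 h passed the test. The difference was 0.55 between 4 and 12 h (adjusted p = 0.0398, 24.7% of genes called) and 0.66 between 8 and 48 h (adjusted p = 0.0127, 30.7% called). From 48 h downwards no pair of neighbours passed it, among them 24 and 96 h with 0.22 (adjusted p = 0.499, 21.6% called).

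FPKM is a value per length, so the levels of the genes can be set beside each other within a library. In control the level of UGT-80 was 0.212 ± 0.0321 of that of RUBY (SD, n = 3). At 2 h the ratio was 1.04 ± 0.331, with 0.680 in replicate 1, and the genes were at a like level. It was 0.648 ± 0.193 at 4 h and near 0.3 at 8 and 12 h (0.302 ± 0.0202 and 0.317 ± 0.0422). At 24 and 48 h it was 0.157 ± 0.0393 and 0.130 ± 0.0361, and the 24 h libraries overlapped control while those at 48 h were all below it. The lowest ratios were 0.0560 ± 0.0188 at 72 h and 0.0692 ± 0.00966 at 96 h, where RUBY stood 19.3 ± 6.44 and 14.6 ± 2.01 times as high as UGT-80. All libraries at 72 and 96 h were below all control libraries in this ratio.

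**Figure D3:**
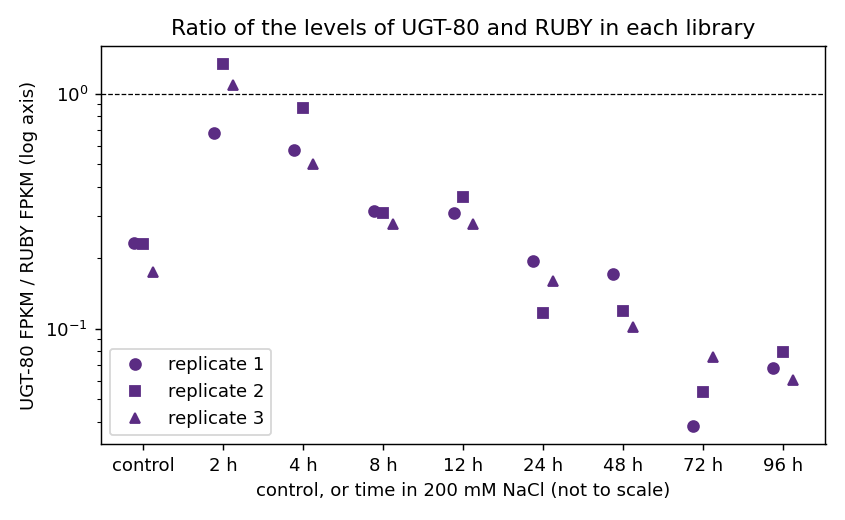
Ratio of the FPKM of UGT-80 to that of RUBY in each library, on a log axis, for control and the times in 200 mM NaCl, with a symbol for each replicate and a dashed line at equal levels. The mean is 0.212 in control, 1.04 at 2 h and 0.0692 at 96 h.

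Over the 9 group means of log2(FPKM + 1), the levels of RUBY and UGT-80 had a Pearson's r of -0.29 (two-sided exact permutation p = 0.443) and a Spearman's rho of -0.37 (exact permutation p = 0.336), and both were 0.443 after adjustment over these tests. Without control and 96 h, the groups farthest from the median of RUBY, r was -0.69 (n = 7, exact permutation p = 0.0883). Both genes were measured in the same libraries, and the permutation treats groups that follow each other in time as exchangeable. No relation was shown. Within groups, the deviations of the genes from their group means had r = -0.47 over 27 libraries, which share the scaling of each library and are given as a description.

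Of the sugar genes that the study names by identifier beside RUBY and UGT-80, a list of 4 was followed. UGP2 (CHLREDRAFT_157049) makes UDP-glucose, UDP-glucose 6-dehydrogenase (CHLREDRAFT_185081) oxidises it to UDP-glucuronate, UDP-sulfoquinovose synthase (CHLREDRAFT_27658) uses it for the head group of a sulfolipid, and AMY1 (CHLREDRAFT_173725) is an alpha-amylase, which cuts starch. From these same data, the study describes UGP2 and AMY1 as raised early, UDP-sulfoquinovose synthase as lowered early and UDP-glucose 6-dehydrogenase as raised late. The counts and medians of the list are therefore a description and not independent of the choice. At 2 h 3 of the 4 were called higher and 1 lower, with a median log2 fold change of 0.98 beside -0.03 over all genes tested, of which 30.1% were called higher and 30.8% lower. At 8 h 1 was higher and 3 lower, with a median of -0.90 beside -0.02, and of all genes 28.4% were called higher and 28.3% lower. At 96 h 1 was higher and 1 lower, with a median of -0.08 beside 0.00, and of all genes 28.0% were called higher and 26.0% lower. At 4, 12, 24, 48 and 72 h the medians were 0.96, 0.49, -0.03, 0.35 and 0.34. Over all genes they were -0.03, -0.03, 0.00, 0.03 and 0.02. UDP-glucose 6-dehydrogenase was called higher at 8 of 8 time points, by 1.51 at 2 h (adjusted p = 5.02e-10). RUBY was also called higher at all 8, but along another course. The means at 2, 8 and 72 h were 165, 77.8 and 163 FPKM for UDP-glucose 6-dehydrogenase and 32.4, 34.4 and 61.9 FPKM for RUBY. The share of all genes called higher at all 8 time points was not computed. UGP2 had its highest levels early, like UGT-80, and was 1.26 higher at 4 h (adjusted p = 2.12e-05), but was 2.83-fold lower than in control at 8 h (adjusted p = 1.76e-06), when UGT-80 was still above control. UDP-sulfoquinovose synthase fell by 2.12 at 2 h (adjusted p = 1.37e-11), the time of the highest UGT-80 level. AMY1 rose by 0.97 at 2 h (adjusted p = 9.61e-06) and was called lower at 8, 72 and 96 h.

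The genes whose course was most like that of each gene were found among 10834 genes that averaged 100 counts or more, by Pearson's r of log2(FPKM + 1) over the 27 libraries. For RUBY they were CHLREDRAFT_140487 (r = 0.97), CHLREDRAFT_182629 (r = 0.96), and CHLREDRAFT_141539, CHLREDRAFT_206201 and CHLREDRAFT_148922 (r = 0.95 each). CHLREDRAFT_140487 had a mean of 45.8 FPKM in control and 155 FPKM at 72 h, and all 5 had a higher mean at 72 h than at any other time. For UGT-80 they were CHLREDRAFT_100959 (r = 0.97), and CHLREDRAFT_24475, CHLREDRAFT_181134, CHLREDRAFT_196083 and CHLREDRAFT_152340 (r = 0.95 each). CHLREDRAFT_24475 had a mean of 14.4 FPKM in control, 112 FPKM at 2 h and 22.5 FPKM at 96 h, and all 5 had their highest mean at 2 h. A value of at least 0.9 was reached by 19 genes with RUBY and by 48 with UGT-80. In the opposite direction, r was -0.9 or lower for 14 genes with RUBY and for 44 with UGT-80. With each other, RUBY and UGT-80 had r = -0.30. The points share libraries and scaling, and the likeness is a description.

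In the gene order of the reference assembly Chlamydomonas_reinhardtii_v5.5, the neighbours of RUBY are CHLREDRAFT_122621 and CHLREDRAFT_179472, and those of UGT-80 are CHLREDRAFT_195272 and CHLREDRAFT_195270. CHLREDRAFT_195272 followed a course close to that of UGT-80, with r = 0.94 over 27 libraries. Its mean was 7.65 ± 0.57 FPKM in control and, after 2, 4, 8 and 12 h of salt, 55.5 ± 3.33, 26.9 ± 3.54, 22.3 ± 1.72 and 15.6 ± 1.94 FPKM, and it was between 6.61 and 7.38 FPKM from 24 h on. It was called higher than control at 4 of 8 time points, the largest change being 2.89 at 2 h (SE 0.15, adjusted p = 4.21e-15), a 7.40-fold increase. The neighbour on the other side, CHLREDRAFT_195270, had r = 0.02 with UGT-80, and its lowest mean, 25.0 FPKM, was at 8 h. CHLREDRAFT_122621, next to RUBY, had r = -0.57 with it. Its mean was 9.59 FPKM in control, 18.0 FPKM at 2 h and 5.01 FPKM at 96 h, when RUBY was at its highest. CHLREDRAFT_179472 had a mean of 93.1 counts and its largest change at 8 h, 1.79 (adjusted p = 0.00390). Whether the counting used the strand is not given in the sources used here, and reads shared between adjacent genes were not tested.

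**Figure D4:**
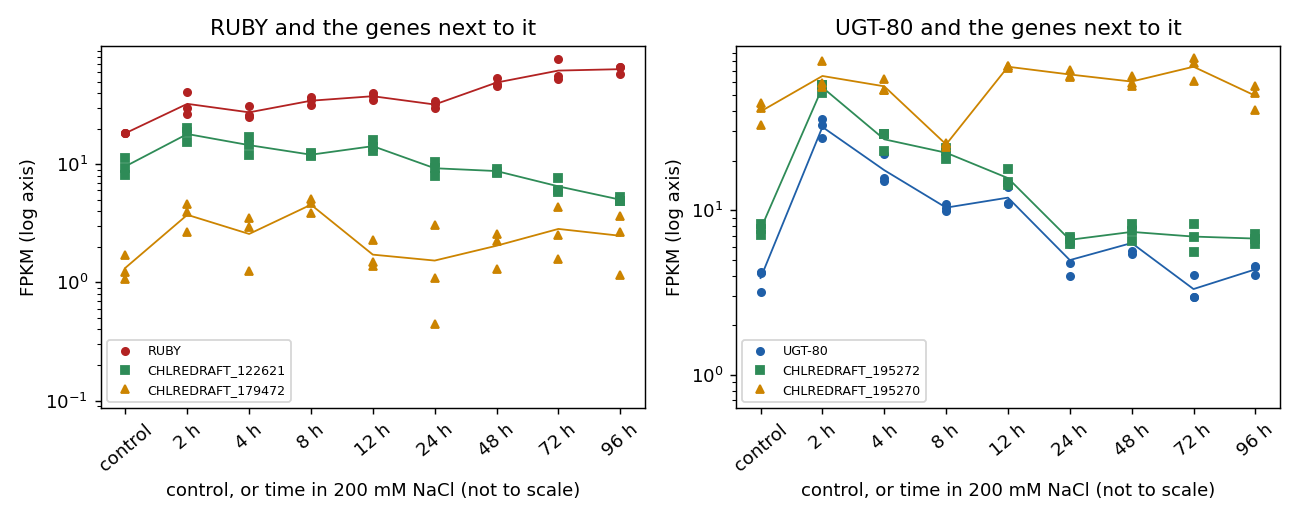
FPKM, on a log axis, of RUBY (left) and UGT-80 (right) and of the genes next to each in the reference gene order, in control and after 2 to 96 h in 200 mM NaCl, with a point for each library and a line through the means. CHLREDRAFT_195272 is at 55.5 FPKM at 2 h, when UGT-80 is at 32.0 FPKM, and at 6.72 FPKM at 96 h, while CHLREDRAFT_195270 has its lowest mean at 8 h.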

How the data were processed

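RNA-seq of 27 libraries in 9 groups of 3 was used, with groups and replicate numbers from the labels. The counts were made and deposited by the authors as whole numbers without normalization, after alignment with HISAT2 2.0.5, transcript assembly with StringTie 1.3.3b and counting of the reads of each gene with featureCounts. The FPKM values were computed and deposited by the authors from counts and gene length. In a check of 6110 genes, the factors between counts and FPKM were those of the median-of-ratios method, up to 80.8% away from what the total counts would give. Genome and annotation were downloaded by the authors from the plant section of Ensembl Genomes, and the name of the assembly is not given in the sources used here. Total counts had a median of 18749997 and a range of 15286332 to 24783139, and the replicate spread sets the precision.

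Counts were tested in R 4.3.3 with edgeR 4.0.16 (filterByExpr, which left 16443 of 19267 genes, TMM, and the quasi-likelihood test in one fit of 27 libraries). Calls required a two-sided p below 0.05 after Benjamini-Hochberg adjustment over all genes of the comparison, whatever the fold change, and intervals are 95%. The comparisons were each time with control, each time with the one before, the neighbours in the order of levels, and the mean of 2, 4, 8 and 12 h with that of 48, 72 and 96 h. Log values of FPKM used a pseudocount of 1. Levels and correlations were computed with scipy 1.17.1, pandas 2.3.3 and numpy 2.4.6 under Python 3.11.15, and figures were drawn with matplotlib 3.10.9. The test was checked on simulated data.

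The members and the lists were chosen with earlier results of these data known. Genes named are RUBY, UGT-80, the 4 further sugar genes, EF1ALPHA, the 5 genes most like each member and the genes next to each. Gene order came from the reference table, in which 12541 identifiers were found. It gave no product names or symbols, so planned lists of oxidases, glycosyltransferases and nucleotide sugar enzymes were not made. No coordinates are given. The alternatives were DESeq2 1.42.0, RLE factors, scaling to the EF1ALPHA count or to total counts, a fit of only the libraries compared, no filter, at least 10 counts in every library, a replicate block, each library left out, limma 3.58.1 on log2(FPKM + 1), an absolute log2 fold change above 1, a pseudocount of 0.1, and Spearman correlation. Leaving out both libraries that stood apart was added after seeing the data. No replicate pair was a duplicate among 27 compared. The quantitative RT-PCR was not analysed here.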

Additional observations from a re-analysis of the deposited data

Results flagged for a closer look

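Levels of both genes differed between salt time points in tests that use no control library, but the age of the culture still rises with time in salt. RUBY was lower in the early than in the late stage of salt by a log2 difference of -0.83, and rose by 0.61 from 24 to 48 h. UGT-80 was higher in the early than in the late stage by 1.83. Its steps of -0.85 from 2 to 4 h, -0.79 from 4 to 8 h, -1.24 from 12 to 24 h and -0.96 from 48 to 72 h also passed edgeR's quasi-likelihood test of the difference. The study named UGT-80 for a rise at 2 to 12 h. Its early against late difference and its fall after 12 h are therefore not independent of the choice.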

How the results depend on the processing

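With an absolute log2 fold change above 1 required, RUBY lost its calls against control at 2, 4, 8 and 24 h (0.85, 0.65, 0.93 and 0.88), which left 4 of 8, and its early against late call (-0.83), and UGT-80 lost that at 48 h (0.78). The steps called were then 0 for RUBY and 1 for UGT-80. Over all alternatives, the early against late difference ranged from -0.88 to -0.39 for RUBY and from 1.64 to 2.27 for UGT-80. Scaled to EF1ALPHA, the 24 h change of RUBY was 0.14, and UGT-80 was at -0.28 after 24 h and 0.54 after 48 h. Steps of the opposite sign were then -0.13 (RUBY, 8 to 12 h), -0.17 (RUBY, 48 to 72 h) and -0.058 (UGT-80, 8 to 12 h), and 2 RUBY steps and 1 UGT-80 step were called. Scaled to total counts, the UGT-80 change was 0.0080 after 72 h and 0.71 after 96 h, the steps from 8 to 12 h were -0.14 for RUBY and -0.059 for UGT-80, and 3 RUBY steps and 1 UGT-80 step were called. With 10 counts required in every library 2 RUBY steps were called, and with only the libraries compared 2 of each gene. The causes of these changes were not tested. Without both libraries that stood apart, chosen after seeing the data, the UGT-80 change after 24 h was 0.47. Leaving out each library in turn, it ranged from 0.28 to 0.61, the RUBY difference between 96 and 72 h from -0.036 to 0.22, and no call of RUBY against control was lost. With Spearman correlation 2 of the 5 genes most like UGT-80 were the same. Of all values recomputed, 1659 kept their direction and their side of the threshold or, for counts, stayed within a set factor. Of the others, 29 lost a call, 9 gained one, 9 changed sign and 11 counts moved beyond that factor. Most of these values come from leaving out 1 library, as in 27 of 38 alternatives for RUBY at 2 h against control. The library left out was often outside the comparison and could change little. The total is therefore no measure of how firm a result is. From 24 h on UGT-80 had 69 to 360 counts per library.

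Replicate numbers did not pair the libraries: deviations of same-numbered libraries had a mean correlation of 0.008 over 108 pairs, of which 21 were above 0.1. Libraries with different numbers had a mean of -0.002 over 216 pairs, of which 39 were above 0.1. With a replicate block, the RUBY change at 96 h was 1.84 and the UGT-80 change at 2 h 3.08, and the block changed no call of either gene.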

Other observations

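The 3 control libraries had nearly the same FPKM of RUBY. The coefficient of variation of their FPKM values was 0.367%, while the mean control count gives a counting error of 2.90%. For UGT-80 the coefficient of variation in control was 15.2% and the counting error 8.73%. Per 1000000 total counts, the control values of RUBY were 54.0, 65.6 and 64.9, and as TMM-scaled CPM they were 74.0, 72.7 and 72.5. EF1ALPHA had a coefficient of variation of 0.480% in the control libraries, and of 62.6% at 2 h and 49.7% at 72 h, the times of the libraries that stood apart.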
